A study of Mus musculus with 11 samples.

Results

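CD8 T cells of the mouse kidney were examined in single-cell RNA-seq of normal kidneys and of kidneys with fibrosis. The cells were chosen by their measured counts of marker genes. A barcode, which stands for 1 droplet, was taken as a CD8 T cell when it held RNA of a CD3 gene (Cd3e, Cd3d or Cd3g) and of Cd8a or Cd8b1, no Cd4, fewer than 2 of the 3 C1q genes, and no Cd79b or Epcam. In all, 1048 of the 45454 barcodes kept after filtering met this rule. They were 26 in controls, 526 after unilateral ischemia-reperfusion (UIR) and 496 after unilateral ureteral obstruction (UUO). The kept barcodes with a CD3 gene and without the exclusion markers numbered 3609, of which 914 fell in a CD4 gate built in the same way.

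The mice were male C57Bl/6, and were 10 weeks old at injury. In the 3 UIR mice the left renal pedicle was clamped for 30 min at 37°C, and in the 3 UUO mice the left ureter was irreversibly tied off. The injured kidney was taken on day 28. The 5 controls were naive kidneys of the same age, strain and sex, and the labels name no transgene or drug treatment in any group. One library was made per kidney by 10x Chromium, which reads the 3′ end of each transcript, and counts are of unique molecular identifiers (UMIs). Libraries are named by group and replicate. Control replicate 1 is titled Ctrl, replicates 2 and 3 carry titles of the N series and replicates 4 and 5 of the AN series, while no injured library belongs to either series.

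CD8 T cells carry an alpha-beta receptor, made of 1 Trav segment joined to the Trac constant region and 1 Trbv segment joined to Trbc1 or Trbc2, which reads peptide held by MHC class I. Naive cells recirculate through lymphoid organs and express Ccr7 and Lef1. Cells that have met antigen turn on Ccl5, Nkg7 and granzymes, and a fraction remains in tissues such as the kidney as resident memory cells, in which Cxcr6 and the integrin Itgae are typical. Lasting stimulation raises inhibitory receptors such as Pdcd1 and Lag3.

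Libraries differed in what the filters left. Total UMIs ranged from 49503312 to 117043590 per library, and 2010 to 8072 barcodes were kept. Of the barcodes with 500 UMIs or more, the limit of 30% mitochondrial UMIs removed 77.75% to 95.5% in control libraries, 68.1% to 75.0% in the UIR libraries and 17.2% to 31.2% in the UUO libraries. A barcode sequence occurred in more than 1 library for 266 of 45186 kept sequences and for 0 of the CD8 T cells. CD8 T cells had a median of 3186 to 5883.5 UMIs per library. UIR replicate 2 had the lowest median. It also held T cell transcripts in fewer of its CD8 T cells, with Trac in 74.9%, Cd2 in 60.3% and Ptprc in 86.9%, against at least 85.85%, 75.1% and 93.9% in the other injured libraries. It enters every result below, and the count of called genes without it is given where it changes.

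The rule used Cd8a (chromosome 6, 71373427 to 71379173, plus strand, GRCm38), Cd8b1 (chromosome 6, 71322788 to 71337494, plus strand) and the CD3 genes such as Cd3e (chromosome 9, 44998740 to 45009627, minus strand), so their presence is a description. Of the 1048 cells, 861 held both Cd8a and Cd8b1, 75 held Cd8a alone and 112 held Cd8b1 alone. Just inside the limits, 95 cells rested on a single UMI of the CD8 genes, 32 on a single UMI of the CD3 genes, 217 held 1 C1q gene and 19 had fewer than 1000 UMIs. Just outside, 165 barcodes failed on the CD3 genes alone, 98 on Epcam alone, 68 on C1q alone, 40 on Cd4 alone, 25 on Cd79b alone and 26 because 30% to 50% of their UMIs were mitochondrial.

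Markers outside the rule were checked against the label. A constant region of the alpha-beta receptor (Trac, Trbc1 or Trbc2) was detected in at least 94.0% of CD8 T cells of each library. In the injured libraries Nkg7, a granule protein of cytotoxic cells, was detected in 84.9% to 97.7% and Cxcr6, a chemokine receptor of tissue T cells, in 66.8% to 90.8%. Neither is particular to CD8 T cells. Over pooled CD4 T barcodes Nkg7 was detected in 54.85% in UIR and 48.5% in UUO and Cxcr6 in 62.6% and 58.2%. NK barcodes were gated by a UMI of Nkg7 and of Ncr1 or Klrb1c, with no CD3, CD8 or Cd4 RNA. All 34 and 67 of them therefore held Nkg7 by that gate. Ncr1, which defines NK cells, was detected in at most 0.781% of CD8 T cells of an injured library and Foxp3, which defines regulatory T cells, in at most 3.125%. In controls Ncr1 was at 0, and Foxp3 was detected in 1 of 5 cells of replicates 1 and 3 each. Transcripts of other cells were present too. Lyz2 of macrophages was detected in 17.2% to 28.8% of CD8 T cells of injured libraries, and Cd74, the invariant chain of antigen-presenting cells, in 41.4% to 66.9%. Slc34a1 of the proximal tubule was detected in 12.9% to 25.1% in UIR, 1.56% to 5.52% in UUO and in 1 or 2 of the 5 or 6 cells of each control. The droplets with too few UMIs to hold a cell carried these transcripts. Their part in the detection was not tested.

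CD8 T cells made up a larger share of kept barcodes in both injuries than in controls. The control libraries held 5, 5, 5, 6 and 5 CD8 T cells, which were 0.142%, 0.249%, 0.235%, 0.283% and 0.234% of kept barcodes. The UIR libraries held 87, 199 and 240, or 1.96%, 2.465% and 4.02%. The UUO libraries held 163, 128 and 205, or 3.31%, 2.17% and 4.85%. Every injured library lay above every control. The control mean was 0.229% ± 0.0524 (SD, n = 5). The mean after UIR was 2.81% ± 1.07 (SD, n = 3), and that after UUO was 3.44% ± 1.35 (SD, n = 3). Each injury differed from controls with a two-sided exact permutation p of 0.0357, the smallest that 5 against 3 libraries allow. The control mean depended on the mitochondrial limit. At 15% the means were 0.6825% in controls, 3.92% in UIR and 3.89% in UUO, and at 50% they were 0.101%, 2.11% and 3.27%, each injury again with an exact permutation p of 0.0357. The 2 injuries overlapped (exact permutation p = 0.6, where 3 against 3 cannot go below 0.1). A share depends on the other cells recovered, and fewer tubular barcodes cannot be told apart from more T cells.

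**Figure D1:**
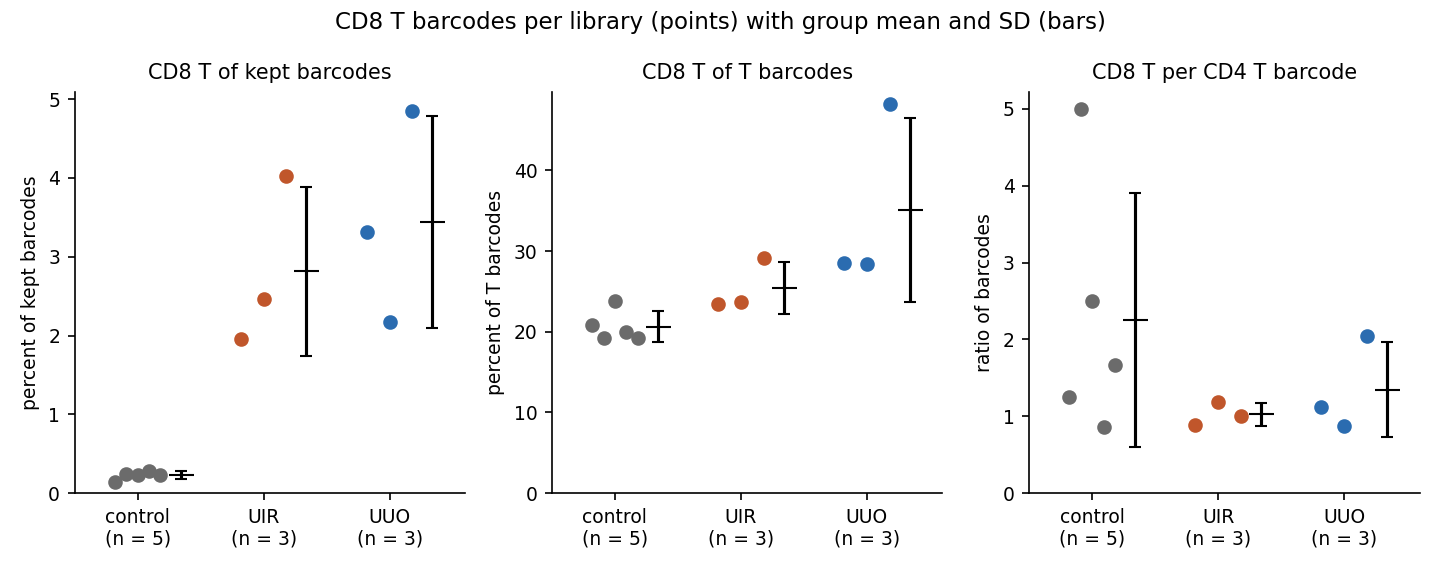
CD8 T cells of each library as a percent of kept barcodes (left), as a percent of T barcodes (middle) and per CD4 T barcode (right), where points are libraries and the bars give the group mean and 1 SD. The 3 UIR and 3 UUO points lie above all 5 controls in the left panel, UUO replicate 3 reaches 48.2% in the middle panel, and the groups overlap in the right panel.

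Other denominators gave higher shares than in controls too. Among barcodes outside a proximal tubule gate the means were 0.450% ± 0.120 in controls, 3.20% ± 1.12 in UIR and 3.52% ± 1.41 in UUO. Among barcodes with a UMI of Ptprc, the pan-leukocyte gene, they were 4.07% ± 0.750, 8.67% ± 1.90 and 8.25% ± 2.57 (SD, n = 5, 3 and 3, exact permutation p = 0.0357 for each injury against controls in both denominators). These 2 denominators were chosen after the data were seen. With mitochondrial UMIs limited to 15%, the share outside the proximal tubule gate was 1.025% in controls, 4.25% in UIR and 3.94% in UUO, each injury with an exact permutation p of 0.0357. At that limit the share of Ptprc barcodes was 6.32% in controls, 9.25% in UIR (exact permutation p = 0.107) and 8.60% in UUO (exact permutation p = 0.286), neither past the test. Two-sided tests against controls of the N series alone gave differences of 2.57 percentage points for UIR and 3.20 for UUO of kept barcodes, and against the AN series 2.56 and 3.19, where the exact permutation p cannot go below 0.2.

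The UIR result depended on the UMI limit. When barcodes were kept only above a limit set from the largest barcodes of each library, 7304.6 to 8983 UMIs in UIR and 3489 to 6444 in controls, the UIR share was 0.4425% against 0.229% in controls (exact permutation p = 0.0714) and the UUO share 2.05% (exact permutation p = 0.0357). At that limit CD8 T cells were 1.14% of Ptprc barcodes in UIR, below the 3.74% of controls (exact permutation p = 0.0357), and 3.95% in UUO (exact permutation p = 0.929). Outside the proximal tubule gate they were then 0.569% in UIR against 0.657% in controls (exact permutation p = 0.714). The median CD8 T cell lay below its library's limit in all 6 injured libraries, at 3186 to 4321.5 UMIs in UIR and 4137 to 5883.5 UMIs in UUO, where the limits were 5969 to 7377 UMIs, and in control replicates 1 and 2.

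Within T cells, CD8 T cells took a larger part in UUO than in controls. They were 19.2% to 23.8% of T barcodes in the 5 controls (mean 20.6% ± 1.90), with 21 to 30 T barcodes per library. The UIR libraries gave 23.45%, 23.7% and 29.1% (mean 25.4% ± 3.21) and the UUO libraries 28.55%, 28.4% and 48.2% (mean 35.05% ± 11.4). UUO lay above every control (two-sided exact permutation p = 0.0357), whereas UIR overlapped them (exact permutation p = 0.107) and the injuries overlapped each other (exact permutation p = 0.3). UUO replicate 3, with 205 of 425 T barcodes (Wilson 95% interval 43.5% to 53.0%), stood above the other UUO libraries, and without it the mean difference from controls was 7.84 percentage points in place of 14.4. At a mitochondrial limit of 15% the UUO difference was 8.28 points (exact permutation p = 0.357). T barcodes with neither Cd4 nor a CD8 gene were 65.6% ± 7.396 of T barcodes in controls, 48.6% ± 7.48 in UIR and 36.2% ± 8.65 in UUO, so the share gated by either coreceptor also differed between groups.

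The ratio of CD8 to CD4 T cells did not separate the groups. The UIR libraries gave 0.888, 1.185 and 1.004, and the UUO libraries 1.12, 0.871 and 2.05. The controls ranged from 0.857 to 5, on 1 to 7 CD4 barcodes each. On the log2 scale the two-sided exact permutation p was 0.179 for UIR against controls, 0.464 for UUO against controls and 0.7 for UUO against UIR.

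Most CD8 T cells of the injured kidneys held transcripts of antigen-experienced cells such as Ccl5 and Nkg7. Cells were thinned to 1000 UMIs each so that depth did not set detection, and shallower cells were left out, which kept 516 of UIR, 487 of UUO and 26 of controls. Of the genes of naive cells, Ccr7 was detected after thinning in 0.697% ± 0.394 (SD, n = 3) of cells in the UIR libraries and 0.953% ± 1.245 (SD, n = 3) in the UUO libraries, and Lef1 in 7.75% ± 2.36 and 6.77% ± 0.677. Proximal tubule barcodes held Ccr7 in 0.229% and 0%, and Lef1 in 0.0915% and 0%. No control library reached the 10 cells needed for a test.

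Ccl5 (chromosome 11, 83525778 to 83530518, minus strand), a chemokine released by activated and memory CD8 T cells, was detected after thinning in 94.25%, 87.0% and 92.0% of cells in UIR and 86.8%, 90.55% and 90.05% in UUO. Proximal tubule barcodes, which should lack it, held it in 1.83% in UIR and 2.53% in UUO at the same 1000 UMIs, with median depths before thinning of 6691 and 9502 UMIs. Nkg7 was detected in 88.5%, 71.9% and 76.4% in UIR and 88.05%, 71.65% and 81.6% in UUO. Both genes were therefore present in most cells of each injured library, far above the tubular share.

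Cxcr6 (chromosome 9, 123806475 to 123811760, plus strand) was detected in 62.1%, 36.5% and 46.4% of thinned cells in UIR and 52.2%, 51.2% and 48.3% in UUO. The UIR libraries spanned the UUO values, with the lowest in UIR replicate 2. Itgae, the CD103 chain that binds E-cadherin of epithelium, was detected in 2.30%, 4.17% and 7.17% in UIR and 5.03%, 6.30% and 6.47% in UUO, against 0.183% and 0.844% in proximal tubule barcodes.

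Gzmk (chromosome 13, 113171608 to 113225908, minus strand), a granzyme of memory-type CD8 T cells, was detected in 18.4%, 12.5% and 17.3% in UIR and 20.75%, 20.5% and 16.9% in UUO. Gzmb, the granzyme of killing cells, was detected in 5.75%, 8.33% and 7.17% in UIR and 6.92%, 4.72% and 5.97% in UUO. Both sets of libraries overlapped. Pdcd1, which encodes PD-1, was detected in 16.1%, 2.604% and 10.1% in UIR and 11.95%, 9.45% and 5.97% in UUO, and Lag3 in 2.97% ± 0.768 and 3.24% ± 2.14. Mki67, a marker of dividing cells, was detected in 3.52% ± 1.92 and 3.08% ± 1.14. Proximal tubule barcodes held Mki67 in 0.777% and 1.69%, Gzmk in 0% and 0.422%, and no Gzmb or Pdcd1.

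None of the 10 tested genes differed between the injuries in the share of thinned cells with a UMI (UUO minus UIR from -1.94 to 3.32 percentage points, smallest exact permutation p 0.3, adjusted p = 0.9 for every gene, and 3 against 3 libraries cannot reach 0.05). Unthinned shares were higher for every gene, as in Cxcr6 with 81.85% in UIR and 83.35% in UUO, Gzmk with 44.6% and 55.25%, Pdcd1 with 22.1% and 23.65%, Lag3 with 10.55% and 12.86%, Ccl5 with 95.2% and 93.1%, Itgae with 9.49% and 13.8%, Mki67 with 7.68% and 9.54%, and Nkg7 within the range given above. Among the 26 thinned control cells, Ccl5 was detected in 21, Nkg7 in 18, Cxcr6 in 11, Gzmb in 5, Lef1 in 4, and Gzmk and Ccr7 in 2 each. Itgae, Pdcd1, Lag3 and Mki67 were detected in 0 of 26 after thinning, which allows a share of up to 11.5% of thinned cells by counting error alone. Before thinning, 5 of the 26 held Pdcd1, 3 held Lag3, 2 held Mki67 and 0 held Itgae.

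**Figure D2:**
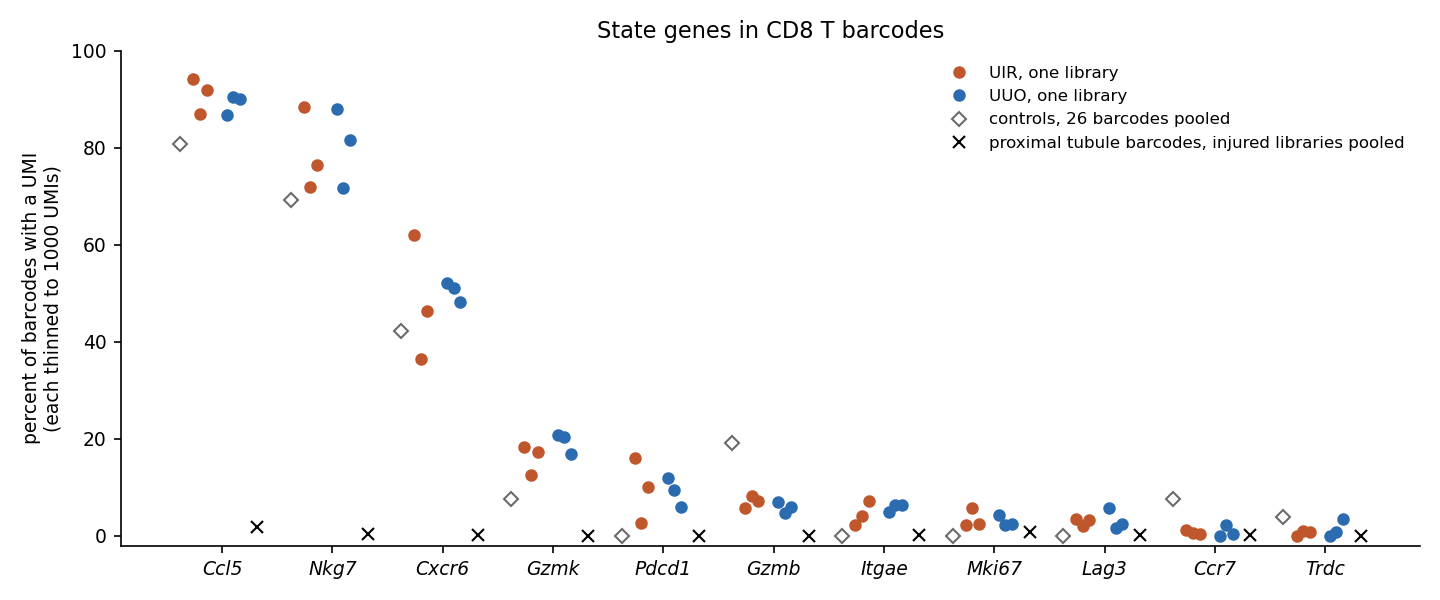
Percent of CD8 T cells with a UMI of each state gene after thinning to 1000 UMIs, with filled points for single UIR and UUO libraries, diamonds for the 26 control cells pooled and crosses for proximal tubule barcodes of the injured libraries. Nkg7 is found in at least 71.65% of cells in each injured library and Ccr7 in at most 2.36%, and the injuries overlap for each gene shown.

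To compare expression over all genes, the UMIs of CD8 T cells were summed per library and levels are given as CPM, the UMIs of a gene per 1000000 UMIs of the pool. Between UUO and UIR, 57 of 7425 genes tested were called by edgeR at an adjusted p under 0.05, a background of 0.768%. All 57 were lower in UUO and 0 were higher. At an unadjusted p under 0.05, 138 genes were higher and 267 lower, and DESeq2 called 71, with 0 higher. The median log2 fold change over all tested genes was 0.01.

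Genes of kidney tubules were among those that fell, with 13 of the 57 in the tubular lists. Of the 12 tested genes of the proximal tubule list, 11 fell (median log2 fold change -4.67), and of 4 in the distal nephron list Umod and Slc12a1 fell (median -2.38). Kap, a secreted protein of male mouse proximal tubule (chromosome 6, 133849851 to 133853762, minus strand), stood at 458, 6818 and 1691 CPM in UIR and 61.1, 31.7 and 78.85 CPM in UUO. Its log2 fold change was -5.80 (SE 0.88, adjusted p = 0.00970). Gpx3, the plasma glutathione peroxidase made in proximal tubule (chromosome 11, 54902453 to 54910377, plus strand), stood at 1073, 1046 and 476 CPM in UIR and 44.0, 22.8 and 53.5 CPM in UUO (log2 fold change -4.48, SE 0.38, adjusted p = 0.000556). The groups were apart for both genes. Umod, the uromodulin of the loop of Henle, stood at 78.85, 105 and 72.1 CPM in UIR and 31.8, 6.33 and 21.6 CPM in UUO (log2 fold change -2.15).

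The amount of tubular RNA in the pools moved with these calls. All 57 called genes were higher in the proximal tubule pools than in the CD8 T pool of every UIR library, and 52 were higher in the empty droplets of every UIR library. None passed the rule that a named gene be at least 2 times its own library's empty droplets. In the empty droplets Kap reached 3127 to 7771 CPM in UIR and 931 to 1992 CPM in UUO. Genes of the tubular lists made up 0.280%, 1.01% and 0.303% of the UIR pools and 0.0336%, 0.0119% and 0.0279% of the UUO pools. At least 1% of UMIs were tubular in 1, 17 and 2 CD8 T cells of the UIR libraries and 0, 0 and 1 of UUO. Without these 21 cells 18 genes were called, without UIR replicate 2 29, and without UUO replicate 3 15. Either of 2 free RNA subtractions left 0 (edgeR, with 127 and 248 genes at an unadjusted p under 0.05), but their size was set from tubular markers, so that they take out tubular transcripts by construction.

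**Figure D3:**
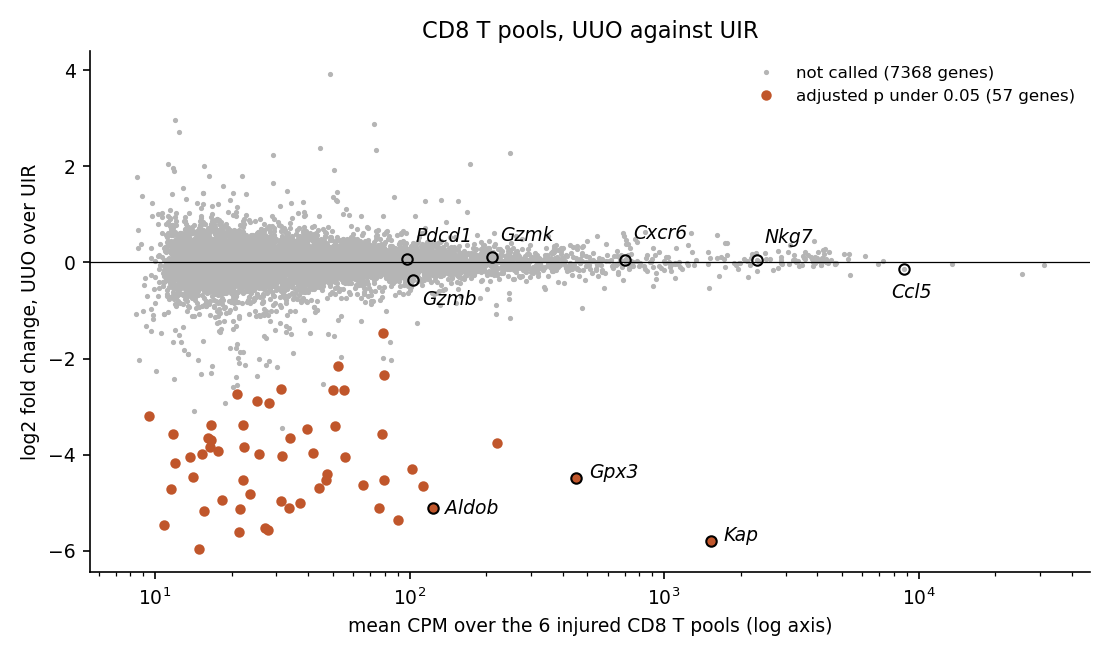
Log2 fold change in CD8 T pools of UUO over UIR (vertical axis) against mean CPM over the 6 pools (horizontal log axis) for each of the 7425 genes tested by edgeR. The 57 called genes lie below 0 and include Kap and Gpx3, while Ccl5, Nkg7, Cxcr6 and Gzmk lie near 0.

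No gene of the lists of T cell function was called between the injuries. Beside the median of 0.01 over all tested genes, the median log2 fold change of UUO over UIR was 0.10 for 16 cytotoxic effectors, 0.04 for 9 genes of tissue residency, 0.03 for the inhibitory receptors, -0.02 for 20 genes of the T cell receptor and its signalling, 0.09 for 13 genes of MHC class I presentation, -0.13 for 14 interferon response genes and 0.08 for cell cycle genes. It was 0.35 for 15 naive and memory genes, 0.44 for 10 chemokine receptors and egress genes and 0.54 for the NK cell receptors. The smallest adjusted p in these lists was 0.142. Among the lists of T cell function the median farthest from 0 was -1.12, in the list of gamma delta and innate-like T cells, where 3 of 11 genes could be tested, Tcrg-C2, Maf and Tcrg-C4 at -0.52, -1.12 and -1.45. Of these, 2 reached an unadjusted p under 0.05 and none was called (smallest adjusted p = 0.901).

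The 2 models overlapped in Ccl5, Nkg7 and Cxcr6. Ccl5 stood at 12820, 5609 and 8549 CPM in UIR and 8196, 9505 and 7889 CPM in UUO (log2 fold change -0.13, SE 0.24). Nkg7 stood at 3096, 1541 and 2005 CPM against 2937, 2094 and 2177 CPM (0.06, SE 0.23). Cxcr6 stood at 862, 488 and 688 CPM against 645, 686.5 and 856 CPM (0.05, SE 0.20). Id2, a transcriptional regulator and the second most abundant of the cytotoxic effector list, stood at 486, 577 and 793 CPM against 584, 1091 and 1075 CPM, with UUO replicates 2 and 3 above every UIR library (0.50, SE 0.25, adjusted p = 0.969 by edgeR). Gzmk stood at 292.5, 124 and 186 CPM against 252, 228 and 185 CPM (0.11, SE 0.26), and Gzmb at 61.05, 142 and 133 CPM against 72.1, 144 and 68.5 CPM (-0.36, SE 0.35). Pdcd1 stood at 137, 47.9 and 99.5 CPM against 129.5, 109 and 64.8 CPM (0.07, SE 0.345).

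A further 4 genes, each with the UIR and UUO pools apart, were chosen after their values were seen. Klrc1, which encodes the inhibitory receptor NKG2A, stood at 22.9, 33.6 and 42.9 CPM in UIR and 58.7, 83.6 and 95.7 CPM in UUO. The groups were apart and the log2 fold change was 1.12 (SE 0.26), but the adjusted p was 0.142. S1pr1, the receptor for leaving tissue, stood at 40.7, 34.9 and 37.8 CPM against 101, 58.3 and 73.2 CPM (log2 fold change 0.98, SE 0.24, adjusted p = 0.1796). Zeb2, a transcription factor of terminal effector cells, stood at 30.5, 47.9 and 45.5 CPM against 70.9, 106 and 85.4 CPM (log2 fold change 0.97, SE 0.24, adjusted p = 0.182). Xcl1, a chemokine that draws cross-presenting dendritic cells, stood at 320.5, 316 and 271 CPM against 252, 119 and 192 CPM (log2 fold change -0.75, SE 0.24, adjusted p = 0.476). None of the 4 passed the test. Empty droplets of UUO held 82.6 to 114 CPM of Zeb2 and those of UIR 30.4 to 46.7 CPM, which is close to the pools, whereas Klrc1 reached at most 7.12 CPM in the empty droplets. S1pr1, which endothelial cells also express, stood at 4.12 to 7.37 CPM in those of UIR and 19.8 to 38.4 CPM in those of UUO, and the median of the endothelial and stromal list was 1.37 in UUO over UIR in the CD8 T pools. Its part in the S1pr1 values was not tested.

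Gzma, which encodes granzyme A, stood at 30.5, 63.4 and 91.8 CPM in UIR and 28.1, 654 and 172 CPM in UUO (log2 fold change 2.05, adjusted p = 0.781). The high value came from few cells. In UUO replicate 2, 15 of 128 cells held Gzma, and 304 of the 516 Gzma UMIs were in 1 cell.

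**Figure D4:**
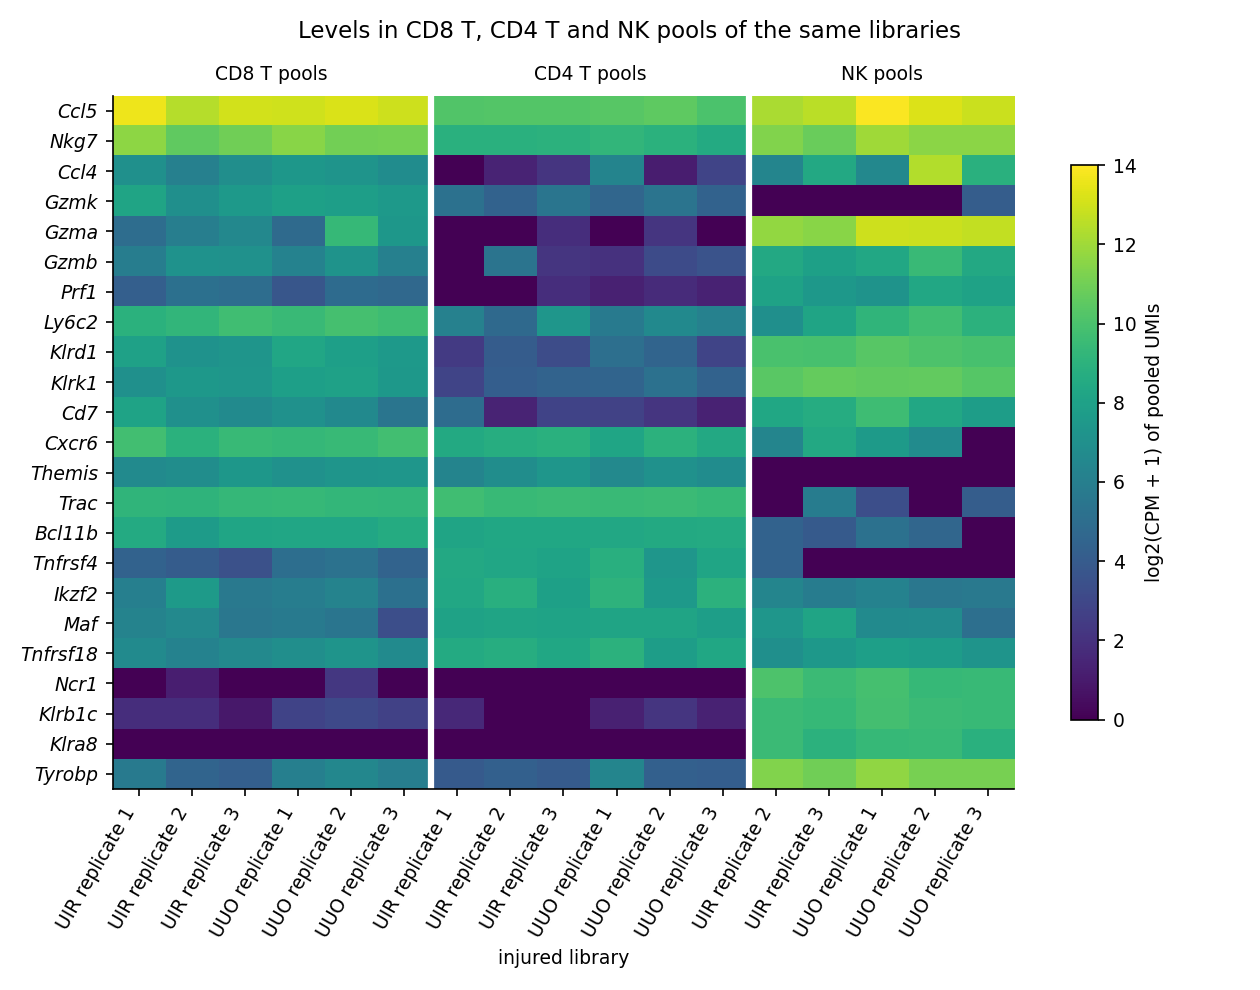
Levels of the named genes in CD8 T, CD4 T and NK pools of the injured libraries, coloured by log2(CPM + 1) from dark (0) to bright (highest), with a row for each gene and a column for each pool and library. Ccl5, Gzmk and Klrd1 are higher in CD8 T than in CD4 T pools of all 6 libraries, and Ncr1 and Klrb1c, which the NK gate used, are highest in the NK pools.

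Against controls the test rested on pools of 5 or 6 cells and 20891 to 37085 UMIs, against 393128 to 1165334 UMIs in the injured pools. In UIR 1 of 6325 genes was called by edgeR, a background of 0.0158%, and in UUO 4 of 6325, a background of 0.0632%. Of the 4, 1 was higher and 3 were lower, the latter a background of 0.0474%. At an unadjusted p under 0.05, 194 genes were higher and 208 lower in UIR, and 206 were higher and 241 lower in UUO. DESeq2 called 4 (1 higher, 3 lower) and 18 (3 higher, 15 lower). With TMM scaling, which moved the median log2 fold change of all genes from -0.01 to 0.35 in UIR and from -0.03 to 0.34 in UUO, 3 (3 higher, 0 lower) and 9 (6 higher, 3 lower) were called. Scaling by library size alone called 1 and 7 (3 higher, 4 lower).

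Apoe, an apolipoprotein abundant in macrophages (chromosome 7, 19696109 to 19699188, minus strand), was called higher in both. It stood at 168, 279.5 and 220.5 CPM in UIR and 354, 400.3 and 242 CPM in UUO. The control pools held 2 Apoe UMIs in all, in replicates 4 and 5. The ratio of pooled levels was 16.7 (95% counting interval 4.61 to 139) for UIR and 23.4 (6.46 to 194) for UUO. Empty droplets of the injured libraries held 1816 to 6173 CPM of Apoe and those of controls 69.6 to 157 CPM. The macrophage list as a whole summed to 243 to 670.1 CPM in control pools, 934.5 to 1229 CPM in UIR and 1353 to 1932 CPM in UUO, with 5 of its 12 genes at 0 in every control pool and 0 at 0 in every injured pool. The part of macrophage RNA in the Apoe result was not tested. Of the 24 alternatives in which Apoe was tested, the call was lost in 8 and turned in sign in 1 in UIR, and was lost in 5 in UUO. Both were lost with the controls of either series alone, with 2 UMIs of the CD3 and CD8 genes, without cells holding other-cell markers and with free RNA subtracted by barcode ranks, where the UIR log2 fold change turned to -5.63. The gates with 2 UMIs and without other-cell markers left control replicates 1, 2 and 3 with 4 cells each, so that only the AN controls entered those fits. The UIR call was also lost at a mitochondrial limit of 15% and without control replicate 1, 3 or 5 (adjusted p = 0.101, 0.0823 and 0.0547 by edgeR). At the 15% limit control replicate 5 held 3 cells and did not enter the fit.

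Kap, Gpx3 and Fxyd2, a subunit of the sodium pump of tubules, were called lower in UUO than in controls (log2 fold changes -3.52, -3.20 and -2.94, adjusted p = 0.0413, 0.00145 and 0.00145 by edgeR). The Kap call was lost in 13 of the 24 alternatives in which it was tested, among them each that left out 1 control or UUO library (adjusted p from 0.0603 to 0.386 by edgeR). The calls of Gpx3 and Fxyd2 were lost in 7 of 25 and 6 of 24, which include leaving out control replicate 1 (log2 fold changes -2.52 and -2.55, adjusted p = 0.0884 for both by edgeR) and either control series alone. Gpx3 stood at 916, 95.7, 250, 291 and 243 CPM in controls, above each UUO pool. Kap stood at 1479, 383, 541, 320 and 539 CPM in controls. Proximal tubule transcripts summed to 814 to 3451 CPM in control pools, 2485 to 9798 CPM in UIR and 69.7 to 225 CPM in UUO.

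No T cell list held a called gene against controls. The median log2 fold change was 0.46 in UIR and 1.44 in UUO for 10 NK cell receptors, with 6 and 9 of them above 0. For 4 chemokines made by T cells it was 1.13 and 0.945, with all 4 above 0 in each. The summed levels of both lists in control pools spanned those of the injured pools. NK cell receptors summed to 297 to 1197 CPM in controls, 533 to 695 CPM in UIR and 765 to 1034 CPM in UUO. The chemokines summed to 2058 to 17160, 6005 to 13320 and 8219 to 9856 CPM. Without control replicate 2 the chemokine medians were 0.77 in UIR and 0.38 in UUO, with 4 of 5 genes above 0 in each. Those of the NK cell receptors were then 0.67 and 1.56. Among 14 interferon response genes the median log2 fold change was 0.89 in UIR and 0.78 in UUO, with 13 and 12 of them above 0. Of these, 7 and 6 reached an unadjusted p under 0.05, beside 194 and 206 higher genes of all 6325 tested, and the smallest adjusted p was 0.567 and 0.334. Among 15 naive and memory genes the median was -1.22 in UIR and -0.73 in UUO, with 11 below 0 in each. The signs of the interferon and of the naive and memory medians were kept with TMM, library size and DESeq2 scaling. The naive and memory medians leaned on control replicate 2, which held 670.1 CPM of Tcf7 against 26.97 to 116.3 CPM in the other controls and 287 CPM of Ccr7 against 0 to 41.6 CPM. Without that library, a setting added after the data were seen, they were -0.68 in UIR and -0.30 in UUO over 14 genes. Lef1 stood at 0, 383, 250, 58.2 and 80.9 CPM in controls and 51.8 to 81.1 CPM in the injured pools, so that control replicates 2 and 3 lay above the injured pools and replicate 1 below. The same control pools enter both comparisons.

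CD8 T cells were set beside CD4 T cells of the same 6 injured libraries and NK cells of 5, as a description, since the rule separates these cells. Of 1313 genes at 100 CPM or more in CD8 T cells on average, 141 were higher than in CD4 T cells in every library. The 10 with the largest mean log2 difference outside the rule were Gzma, Ccl4, Cd7, Klrd1, Gzmb, Ly6c2, Klrk1, Atp8b4, Ccl5 and Gzmk. Gzma averaged 173 CPM in CD8 T pools and stood at 0 to 3.44 CPM in CD4 T pools, and without UUO replicate 2 the CD8 T mean was 77.1 CPM, under the 100 CPM limit of the rule. Cd7, a surface protein of T and NK cells, averaged 132 CPM in CD8 T against 7.96 CPM in CD4 T, Gzmb 104 against 11.05 CPM, Klrk1, which encodes the activating receptor NKG2D, 190.1 against 20.6 CPM, and Atp8b4, a phospholipid transporter, 105 against 13.6 CPM. Klrd1, the CD94 partner of NKG2 receptors, averaged 216 CPM in CD8 T against 15.03 CPM in CD4 T, Ly6c2, a marker of memory CD8 T cells, 734 against 80.1 CPM, Ccl5 8761 against 1240 CPM, Ccl4, a chemokine of activated T cells, 125 against 14.97 CPM, and Gzmk 211 against 30.3 CPM. In the other direction, 186 of 1370 genes were lower in CD8 T cells in every library. These included Tnfrsf4, the OX40 receptor, at 22.8 against 309 CPM, Maf at 53.9 against 274 CPM, Ikzf2, a factor of regulatory T cells, at 80.8 against 379 CPM, and Tnfrsf18, the GITR receptor, at 107 against 362 CPM.

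Beside NK cells, 162 of 1322 genes were higher and 280 of 1513 lower in CD8 T cells of every library. Themis, which is needed for T cell maturation, averaged 147.5 CPM in CD8 T and was at 0 in the NK pools. Gzmk averaged 195 against 3.34 CPM and Trac 614 against 16.9 CPM. Ncr1 averaged 1.02 against 829 CPM and Klrb1c, the NK1.1 antigen, 4.56 against 749 CPM, but the NK gate used both genes and so set their height in NK pools. Gzma averaged 5656 CPM in NK pools and Prf1, the pore-forming perforin, 237.5 CPM, against 25.1 CPM of Prf1 over the 6 CD8 T pools. Ccl5 did not separate them, with 8704 CPM in NK pools and a higher CD8 T value in 3 of 5 libraries.

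Some receptor V segments were detected often in 1 library and seldom in the others. A V segment was detected in 23.1% to 41.1% of CD8 T cells per injured library, since reads start at the 3′ end, and 20 to 39 different segments were seen in each. The segments below were chosen after their counts were seen, as the most frequent of a library. Trav8-2 was detected in 21 of 163 cells of UUO replicate 1 (12.9%, Wilson 95% interval 8.58% to 18.9%). Of the other injured libraries, UIR replicate 2 held it in 1 of 199 cells and the rest in 0, where 0 allows shares of up to 1.25% to 3.45%. All 21 cells held Trbc2 without Trbc1, as did 80 of the 142 other cells of that library, in which 0 had Trbc1 alone.

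Trav7-5 was detected in 23 of 240 cells of UIR replicate 3 (9.58%, 6.47% to 13.97%) and in 0 to 2 cells of each other injured library. These 23 cells held Trbc1 alone in 5 cases and Trbc2 alone in 0, against 6 and 93 of the other 217. Gzmb was detected in 12 of the 23 and in 34 of the other 217, at median depths of 4152 and 4338 UMIs, a gene singled out after its values were seen. The same counts were 13 and 96 for Gzmk, 21 and 190 for Cxcr6, 23 and 209 for Ccl5 and 2 and 19 for Mki67. Trav15-1-dv6-1, a segment that can join to either the alpha or the delta chain, was detected in 15 of 205 cells of UUO replicate 3 (7.32%, 4.48% to 11.7%) and in 0 cells of the other injured libraries. Gzmb was detected in 1 of these 15 and in 30 of the other 190. Each of the 3 segments was thus detected in at least 7.32% of the CD8 T cells of 1 library and at most 1.56% of those of each other injured library. These are shares of cells with a UMI, not of cells that carry the segment.

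In the remaining libraries the most frequent segment was not of that kind, and less frequent segments of any library were not compared between libraries. The most frequent was Trav16n in UIR replicate 1 with 8 of 87 cells and in UUO replicate 2 with 7 of 128, and Trav16 in UIR replicate 2 with 6 of 199. These are near-identical copies, as are Trbc1 and Trbc2, so the assignment of reads within such pairs is uncertain. CD4 T cells of the same libraries held the 5 segments in 0 to 4 cells each. Of the 26 control cells, 7 held a V segment.

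**Figure D5:**
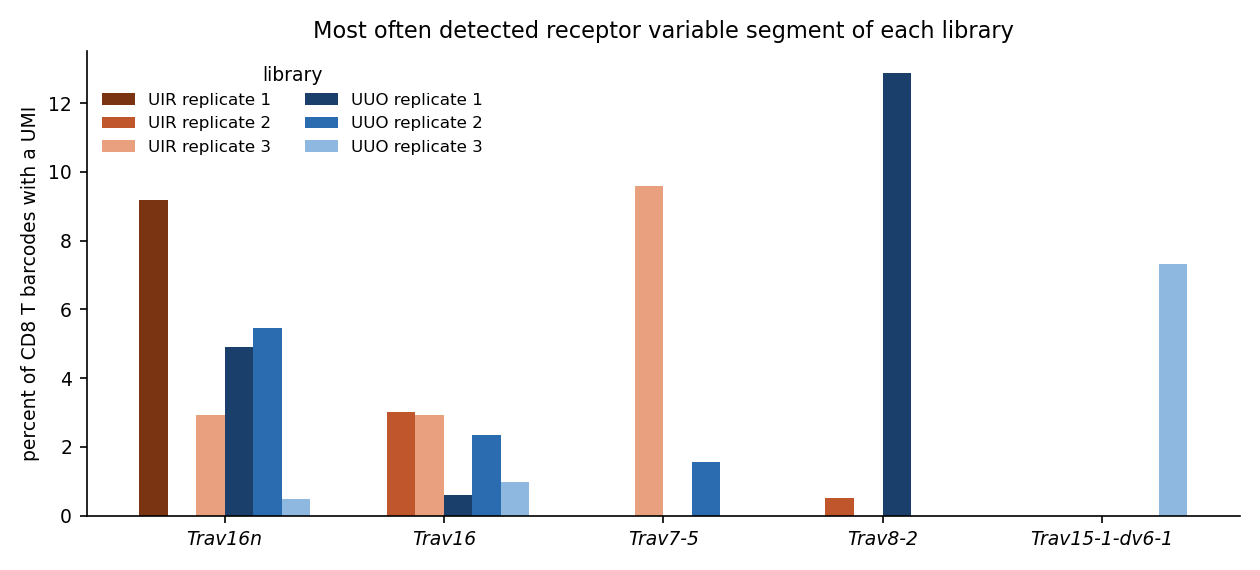
Percent of CD8 T cells with a UMI of each of 5 Trav segments in the 6 injured libraries, with a bar for each library and no bar where no cell held the segment. Trav8-2 stands out in UUO replicate 1 (12.9%), Trav7-5 in UIR replicate 3 (9.58%) and Trav15-1-dv6-1 in UUO replicate 3 (7.32%).

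The constant region of the delta chain, Trdc (chromosome 14, 54142851 to 54148868, plus strand), followed the last segment. Trdc was detected without thinning in 22 of 205 CD8 T cells of UUO replicate 3 (10.7%, Wilson 95% interval 7.195% to 15.7%) and in 0 to 3 cells, or at most 1.56%, of each other injured library. Of the 22, 19 also held Trac, 22 Trbc2 and 20 Cd8b1. It was found in 10 of the 15 cells with Trav15-1-dv6-1 and in 12 of the other 190. After thinning the share in UUO replicate 3 was 3.48%. In T barcodes outside the CD4 and CD8 gates Trdc was detected in 3.41% to 5.83% of the injured libraries. UUO replicate 3 is also the library with the highest CD8 T share of T barcodes.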

How the data were processed

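Dissociated kidneys were profiled by 10x Chromium single-cell RNA-seq in 5 control, 3 UIR and 3 UUO libraries. The authors aligned and counted reads with Cell Ranger on mm10 (version 3.1.0 per the submitters' processing notes, a later one per the study's methods, which was not settled here) and deposited, for each library, an unfiltered matrix of UMI counts for 28692 features, with no cell annotation. Depth per sample is given in the text.

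Barcodes with at least 500 UMIs, 200 genes and at most 30% mitochondrial UMIs were kept. Doublets were not called or removed. The members and the 25 gene lists (282 genes) were chosen with earlier results of these data known. Shares were compared over libraries by two-sided exact permutation tests, with Wilson 95% intervals, which like limits of 3 counts cover counting error only. Detection of single genes was compared after thinning to 1000 UMIs. Pools of at least 10 CD8 T cells were tested in edgeR 4.0.16 (quasi-likelihood, filterByExpr, TMM, R 4.3.3) with p-values adjusted over every tested gene by the Benjamini-Hochberg method. No control pool reached 10 cells, so control contrasts used pools of at least 5. On simulated data TMM was biased in these small pools, and RLE size factors were used there. DESeq2 1.42.0 was an alternative. Genes of the rule and mitochondrial genes were not tested.

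Named were marker genes, called genes of each list or else up to 4 with the highest mean CPM, up to 10 called genes per direction with at least 50 CPM, groups apart and at least 2 times the level of empty droplets (barcode ranks 45000 to 90000), and up to 10 genes at 100 CPM against CD4 and NK pools. Other genes were chosen after their values were seen. Some planned results, among them a grouping of cells by naive and effector transcripts, are not reported here. Alternatives were other limits on UMIs and mitochondrial RNA, stricter gates, free RNA subtraction, other scalings, no filter on low counts, control series, a replicate block and leaving out each library. Whether replicates share a day or batch is not given in the sources used here. Python 3.11.15, numpy 2.4.6, scipy 1.17.1 and pandas 2.3.3 were used.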

Additional observations from a re-analysis of the deposited data

Results flagged for a closer look

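Among the control libraries, 17 groups of values were checked for a library far from the others, and chance gives about 1 in 20. In CD8 T pools of controls, Cxcr6 stood at 814.3 CPM in replicate 4 against 191.5 to 352.2 CPM in the other 4. Ccr7 stood at 287.2 CPM in replicate 2 against 0 to 41.63 CPM. Tcf7, a factor of naive and memory T cells, stood at 670.1 CPM in replicate 2 against 26.97 to 116.3 CPM. Each of these pools held 5 or 6 cells.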

How the results depend on the processing

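Of 219 values for 12 group comparisons, 169 kept their direction and side of the threshold (counts within 1.5 times). Of the rest, 3 lost the threshold, 3 gained it, 7 changed sign with neither value past the test, and 37 counts moved. Shares of Ptprc barcodes and of barcodes outside the proximal tubule gate entered this tally only at the main limits. Their changes at other limits, given above, are not counted. Among those is the UIR share of Ptprc barcodes, which fell below controls past the test at the UMI limit set from the largest barcodes. Share comparisons that left out a library of either group held too few libraries for the permutation test to pass. Where the groups stayed apart as in the main comparison, they were counted as keeping their side of the threshold, although none passed the test. The UUO minus UIR share was -0.413 percentage points of Ptprc barcodes and -0.0335 of barcodes at a mitochondrial limit of 15%, and the log2 ratio of CD8 to CD4 in UUO over AN controls was 0.0776. The UIR share of barcodes over controls was 0.214 percentage points at the UMI limit set from the largest barcodes. The CD8 T share of T barcodes in UIR over controls passed the test at a mitochondrial limit of 50% (5.95 points), at 1000 UMIs (4.80) and with 2 UMIs of the CD3 and CD8 genes (4.65), and was -0.782 at a mitochondrial limit of 15% and -1.16 at the UMI limit, neither past the test. In UUO over controls it was 8.28 at a mitochondrial limit of 15% and 14.46 at the UMI limit, neither past the test.

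The genes called for UIR against controls were 0 with 2 UMIs of the CD3 and CD8 genes, with controls of the AN or N series alone, after subtracting free RNA of barcodes of 10 to 100 UMIs, at a mitochondrial limit of 15% and without cells holding other-cell markers (edgeR, 576, 592, 569, 108, 506 and 573 at an unadjusted p under 0.05). They were 4 with DESeq2, 3 with TMM and 68 with no filter on low counts. Those for UUO against controls were 0 with 2 UMIs, either control series, either free RNA estimate and no other-cell markers (643, 632, 605, 22, 313 and 630 unadjusted), 18 with DESeq2, 9 with TMM, 7 with library size, 74 with no filter and 8 without cells of 1% tubular UMIs. Those for UUO against UIR were 0 with either free RNA estimate (127 and 248 unadjusted), 369 with no filter (88 higher, 281 lower), 25 without other-cell markers and 18 without cells of 1% tubular UMIs. Apoe in UIR turned to -5.63 after free RNA subtraction by barcode ranks. That subtraction estimated free RNA at 70.2% of the UMIs of the UIR replicate 2 pool, against 3.50% to 27.4% elsewhere. The estimate from barcodes of 10 to 100 UMIs came to 100% of that pool, and both rest on tubular markers. With the estimates from 10 to 100 UMIs and from barcode ranks, UUO over UIR turned to -0.61 and -0.16 for Nkg7, -0.67 and -0.18 for Cxcr6, -0.62 and -0.12 for Gzmk and -0.57 and -0.14 for Pdcd1, and with the first to -0.31 for Lag3 and 3.83 for Mki67. Lag3 was also -0.14 without other-cell markers, and Pdcd1 -0.016 at a mitochondrial limit of 15%. Unthinned, the share with a UMI was higher in UUO than UIR by 1.07 points for Gzmb, 1.56 for Pdcd1 and 1.86 for Mki67. For Mki67 the groups were apart, at 5.75% to 8.75% in UIR and 9.20% to 10.2% in UUO. Its unadjusted exact permutation p was 0.1, the smallest that 3 against 3 libraries allow. None of these differences between UUO and UIR passed the test. The causes were not tested. Apoe passed the test in 15 of 24 alternatives in UIR and 19 of 24 in UUO, Kap in 11 of 24, Gpx3 in 18 of 25 and Fxyd2 in 18 of 24 in UUO against controls. Alternatives in which the gene was not tested are not counted.

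Leaving out 1 library gave 0 to 3 genes for UIR against controls (0 without control replicate 1, 3 or 5, 3 without UIR replicate 1), 1 to 6 for UUO against controls (1 without control replicate 1) and 15 to 77 for UUO against UIR. CD8 T shares of barcodes differed by 1.98 to 3.01 points in UIR and 2.51 to 3.85 in UUO, and of T barcodes by 2.95 to 5.79 and 7.84 to 17.8. UUO minus UIR gave -0.0761 to 1.27 points of barcodes and 3.04 to 12.97 of T barcodes. The log2 ratio of CD8 to CD4 differed by -1.149 to -0.51 in UIR, -0.91 to -0.20 in UUO and -0.0416 to 0.58 between them. No permutation p of a comparison that uses the library left out can fall to 0.05. Log2 fold changes of UUO over UIR that changed sign ran from -0.12 to 0.37 for Nkg7, -0.12 to 0.25 for Cxcr6, -0.13 to 0.44 for Gzmk, -0.36 to 0.21 for Ccl5, -0.16 to 0.57 for Ccr7, -0.24 to 0.36 for Pdcd1, -0.44 to 0.75 for Lag3 and -1.12 to 0.047 for Mki67.

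The replicate block was fitted on the numbered UIR and UUO libraries and called 62 genes (1 higher, 61 lower), 33 of them among the 57. The numbers mark no shared mouse or day in the labels, and deviations of same-numbered libraries correlated at -0.287 over 7425 genes. The crossed pairing, chosen after seeing the data, called 391 (67 higher, 324 lower). The block and the crossed pairing gave log2 fold changes of 0.251 and 0.252 for Ccl5 and -0.27 and -0.21 for Lag3. Pools of at least 10 or 20 cells could not be fitted for controls, nor could their shares of cells with a UMI of single genes be tested. Control pools of 5 or 6 cells limit every gene-level comparison with controls.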

Other observations

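Ccr2, a chemokine receptor of monocytes and effector T cells, stood at 76.3, 120.3 and 115 CPM in UIR and 103, 228 and 363 CPM in UUO (log2 fold change 1.06, SE 0.37, adjusted p = 0.664 by edgeR). The highest value was in UUO replicate 3, the library with the highest share of cells with Trdc. Ccr2 also stands in the macrophage list, and empty droplets of UUO held 70.1 to 124 CPM.

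Red blood cell genes summed to 6.47 to 12.7 CPM in the UIR pools and 22.5 to 598 CPM in the UUO pools, and neutrophil genes to 0 to 1.29 and 8.555 to 15.96 CPM. Endothelial and stromal genes summed to 440 to 772.5 CPM in UIR and 104 to 1902 CPM in UUO. None of these lists held a called gene.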
